A study of Mus musculus with 23 samples.

Results

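A set of 8 receptor genes that steer lymphocytes between blood, lymphoid organs and inflamed tissue were followed in lymph node (LN) and spleen of mice with wild-type (WT) or edited Stat5b: Ccr7, S1pr1, S1pr5, Cxcr4, Cxcr5, Cxcr3, Ccr2 and Cxcr6. They were chosen by symbol, with earlier results of these data known. They make up 8 of the 32285 genes in the matrices, and each symbol had 1 row. Unique molecular identifiers (UMIs, which count captured transcripts) of each gene were summed over cells that marker genes place among T, B or natural killer (NK) cells, separately in every library. In LN CD8 T cells of Y665F homozygous mice, Cxcr3 rose and Cxcr6 fell against WT. Over 20 alternative runs of the test, Cxcr3 was called in 19 and Cxcr6 in 13. The scarce Ccr2, S1pr5 and Cxcr5 were also called higher but entered the test only with the libraries in which they are high. Cxcr3 stood at 55.2 and 45.8 CPM in WT and 121 and 126 CPM in homozygotes (CPM scales a gene's counts to the total of its gate). Ccr7 (242 to 314 CPM over the 7 LN libraries) and S1pr1 (166 to 199.8 CPM) did not pass the test in these cells. No member passed it in LN B cells, where 0 of 9179 genes passed in homozygotes and 10 (0.109%) in heterozygotes.

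Most of these receptors couple to inhibitory G proteins and pull a cell toward a gradient. Ccr7 reads the chemokines that draw naive T cells into lymph node, and S1pr1 reads sphingosine-1-phosphate and lets cells leave it, while S1pr5 is the related receptor of NK cells and effector T cells. Cxcr4 binds Cxcl12 and holds cells in marrow and stromal niches. Cxcr5 binds Cxcl13 and brings B cells and follicular helper T cells into follicles. Cxcr3, Ccr2 and Cxcr6 are receptors of inflamed tissue: Cxcr3 answers interferon-induced chemokines, Ccr2 is best known on monocytes and also marks memory T and NK cells, and Cxcr6 binds Cxcl16 and marks tissue-resident memory cells. STAT5B is a transcription factor switched on by cytokine receptors, and the 2 edits, Y665F and Y665H, change the same tyrosine of its SH2 domain.

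The series compared germline Stat5b edits in 2-month-old C57BL/6 mice that received no treatment in the labels. LN libraries came from WT (n = 2), Y665F heterozygous (het, n = 3) and Y665F homozygous (homo, n = 2) animals, while spleen gave 1 library each of WT, Y665H and Y665F, whose zygosity the labels do not give. In C57BL/6N mice, Y665F alleles were made with Cas9 and an oligonucleotide that also carries a silent change, and Y665H alleles by base editing, so every cell of an animal carries the allele. Spleen cells were isolated by CD45, a marker of white blood cells, and the study's legend for the spleen data gives 1 combined sample of 3 mice per group but names lymph nodes there, so what was pooled is not certain. Nothing says that the LN replicates are separate animals, so p-values measure the spread between these libraries.

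LN libraries differed in depth, with medians of 368 to 3116 UMIs per barcode, and het replicate 3 and homo replicate 1 were the shallowest (368 and 395). Spleen medians were 5046 to 6487. The CD8 T gate held 578 to 2240 LN cells and 1476 to 1974 spleen cells per library, the CD4 T gate 63 to 776 and 729 to 1556, the B gate 626 to 3006 and 816 to 2347, and the NK gate 4 to 29 and 169 to 329. Of LN T-gated cells, 92.7 to 96.6% carried a productive T-cell receptor in the matched receptor libraries, against 1.23 to 7.32% of B-gated cells. B-gated cells therefore serve as the background for T-cell genes, and that background was higher in the shallowest pair, at 7.32 and 6.87% of B-gated cells. LN libraries shared up to 1.56% of their barcodes pairwise and spleen libraries up to 0.342%. In a sum over a gate, fewer cells with a transcript and less of it per cell cannot be told apart.

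The members sit on 5 chromosomes of the GRCm38 build (GENCODE vM21). Ccr7 (ENSMUSG00000037944) lies at chr11:99144196-99155077 and S1pr1 (ENSMUSG00000045092) at chr3:115710433-115715072, both on the minus strand. S1pr5 (ENSMUSG00000045087) lies at chr9:21242912-21248443, Cxcr3 (ENSMUSG00000050232) at chrX:101731535-101734269 and Cxcr4 (ENSMUSG00000045382) at chr1:128588199-128592293, also on the minus strand. Ccr2 (ENSMUSG00000049103) lies at chr9:124101950-124113557 and Cxcr6 (ENSMUSG00000048521) at chr9:123806475-123811760, both on the plus strand, with Cxcr6 inside Fyco1 of the other strand. Cxcr5 (ENSMUSG00000047880, chr9:44511787-44561877, minus) overlaps the end of Bcl9l on the plus strand. How strand was used in counting is not given in the sources used here, so values of Fyco1 and Bcl9l stand beside those of Cxcr6 and Cxcr5.

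The 250 bases upstream of the RefSeq start (GRCm38.p6) are shown, 5′ to 3′ on the gene's strand, for the 4 of the 5 members called in homozygous LN CD8 T cells that have an entry. The motifs searched, on both strands of each window, were TTCNNNGAA, the STAT5 motif, GGTGTGA, a T-box motif, and CACCC, which KLF factors bind. Capitals mark CACCC or its reverse complement. The windows are chr9:21248444-21248693 (minus) for S1pr5, chrX:101734148-101734397 (minus) for Cxcr3, chr9:124101933-124102182 (plus) for Ccr2 and chr9:123806227-123806476 (plus) for Cxcr6.
S1pr5: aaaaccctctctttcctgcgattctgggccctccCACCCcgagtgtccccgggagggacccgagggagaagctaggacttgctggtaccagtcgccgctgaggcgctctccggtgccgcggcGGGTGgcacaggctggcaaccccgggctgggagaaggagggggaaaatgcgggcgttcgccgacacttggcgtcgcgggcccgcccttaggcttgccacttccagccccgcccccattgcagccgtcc
Cxcr3: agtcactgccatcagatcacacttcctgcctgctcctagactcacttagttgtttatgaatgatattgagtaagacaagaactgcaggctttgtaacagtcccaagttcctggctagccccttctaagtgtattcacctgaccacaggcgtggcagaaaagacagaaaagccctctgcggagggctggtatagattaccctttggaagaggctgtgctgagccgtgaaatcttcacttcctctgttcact
Ccr2: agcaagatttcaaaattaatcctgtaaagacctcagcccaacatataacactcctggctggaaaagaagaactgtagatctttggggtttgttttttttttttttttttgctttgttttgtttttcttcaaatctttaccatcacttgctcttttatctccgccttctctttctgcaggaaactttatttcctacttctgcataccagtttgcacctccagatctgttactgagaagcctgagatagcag
Cxcr6: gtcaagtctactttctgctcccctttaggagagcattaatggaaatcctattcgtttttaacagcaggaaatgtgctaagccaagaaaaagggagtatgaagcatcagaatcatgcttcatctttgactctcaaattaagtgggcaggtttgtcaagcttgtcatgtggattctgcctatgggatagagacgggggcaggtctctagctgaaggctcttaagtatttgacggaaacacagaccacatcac

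CACCC was found in S1pr5 2 times, starting 216 and 128 bases upstream, and in Cxcr4 1 time, starting 219 bases upstream. It was found in none of Cxcr3, Ccr2 and Cxcr6, and 52.0% of the 32851 promoters in the table hold it. TTCNNNGAA was in none of the 5 member windows and in 7.02% of all promoters, and GGTGTGA was likewise in none and in 3.33% of all. These are letters in a window of 250 bases and say nothing of where a factor binds. Ccr7, S1pr1 and Cxcr5 have no window here.

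Levels of the receptors over lymphocyte classes are given as means, with no difference between neighbouring gates past the test. In LN, where NK cells were left out of the order because a library holds as few as 4 of them, the mean of 7 libraries for Ccr7 ran from 371 CPM in CD4 T cells through 273 in CD8 T cells and 224 in Foxp3+ regulatory T (Treg) cells to 158 in B cells. S1pr1 took the same order, at 229, 179, 136 and 101 CPM. Both were higher in CD4 T than in CD8 T cells in 7 of 7 libraries. Treg did not separate from CD8 T or B cells for Ccr7 (below CD8 T in 5 of 7 libraries and above B in 6), and homo Treg stood at 314 CPM against 269 in homo CD8 T cells. Without het replicate 3, whose 17 Treg cells hold no Ccr7 UMI, the Treg mean was 262 CPM. Among the T and B gates Cxcr3 led in CD8 T cells (91.7 CPM), then came Treg (42.7), CD4 T (15.7) and B cells (5.09), and Cxcr6 was also highest in CD8 T cells, at 71.6 against 19.5 in Treg, 11.8 in CD4 T and 2.23 CPM in B cells. Treg and CD4 T cells did not separate for Cxcr6, with Treg higher in 2 of 7 libraries. The Treg mean rests on 1 UMI of het replicate 3, without which it was 5.66 CPM and below CD4 T. Without homo replicate 1 the Cxcr3 mean of B cells was 2.96 CPM.

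B cells led for 2 members. Cxcr5, the follicle receptor, stood at 143 CPM in LN B cells and between 9.26 and 10.6 CPM in the 3 T-cell gates, and Cxcr4 at 46.9 CPM in B cells and 13.1 to 23.4 in T cells. The pooled Cxcr5 means of the T-cell gates join genotypes with opposite orders, since WT stood at 18.4 CPM in CD4 T and 4.53 in CD8 T cells and homo at 1.32 and 11.1. Cxcr4 did not separate Treg from CD8 T cells (higher in 2 of 7 libraries). Ccr2 ran from 39.4 CPM in Treg through 16.3 in CD4 T and 11.8 in CD8 T to 0.943 in B cells, with CD8 T above B in 7 of 7 libraries and the T-cell gates not separable. The CD4 T mean rests on 3 UMIs of homo replicate 1, without which it was 3.04 CPM and below CD8 T, and the B mean without that library was 0.356 CPM. Outside NK cells, S1pr5 was seen mainly in CD8 T cells (2.97 CPM) and did not separate CD4 T, Treg and B cells, at 0 to 0.638 CPM. Over 24 neighbouring pairs of gates, the smallest p that an exact two-sided permutation test of 7 libraries can give is 0.0156. It was reached by 6 pairs, at 0.0625 after Benjamini-Hochberg adjustment, so no pair passed 0.05.

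The few LN NK cells held UMIs of 3 members at the levels that follow. Their group means were 123, 75.6 and 87.3 CPM of Cxcr3 in WT, het and homo (9, 8 and 1 UMIs), beside 50.5, 97.9 and 124 CPM in CD8 T cells. Ccr2 stood at 279, 220.1 and 151 CPM (21, 23 and 1 UMIs) and S1pr5 at 141, 337 and 0 CPM (10, 18 and 0 UMIs), above the T and B gate means wherever UMIs were found.

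NK cells of the spleen stood apart from the other gates. Ccr2 was at 478 (WT), 514 (Y665H) and 242 CPM (Y665F) in NK cells and at most 37.1 CPM in CD8 T cells. S1pr5 was at 170.4, 108 and 148 CPM in NK cells and at 6.71, 2.08 and 15.9 CPM in CD8 T cells. Ccr7 was nearly absent from NK cells (1.19 to 6.24 CPM), while Cxcr5 reached 2.46 CPM there at most. High S1pr5 and Ccr2 with little Ccr7 is known of mature NK cells, and the gate used none of these genes.

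**Figure D1:**
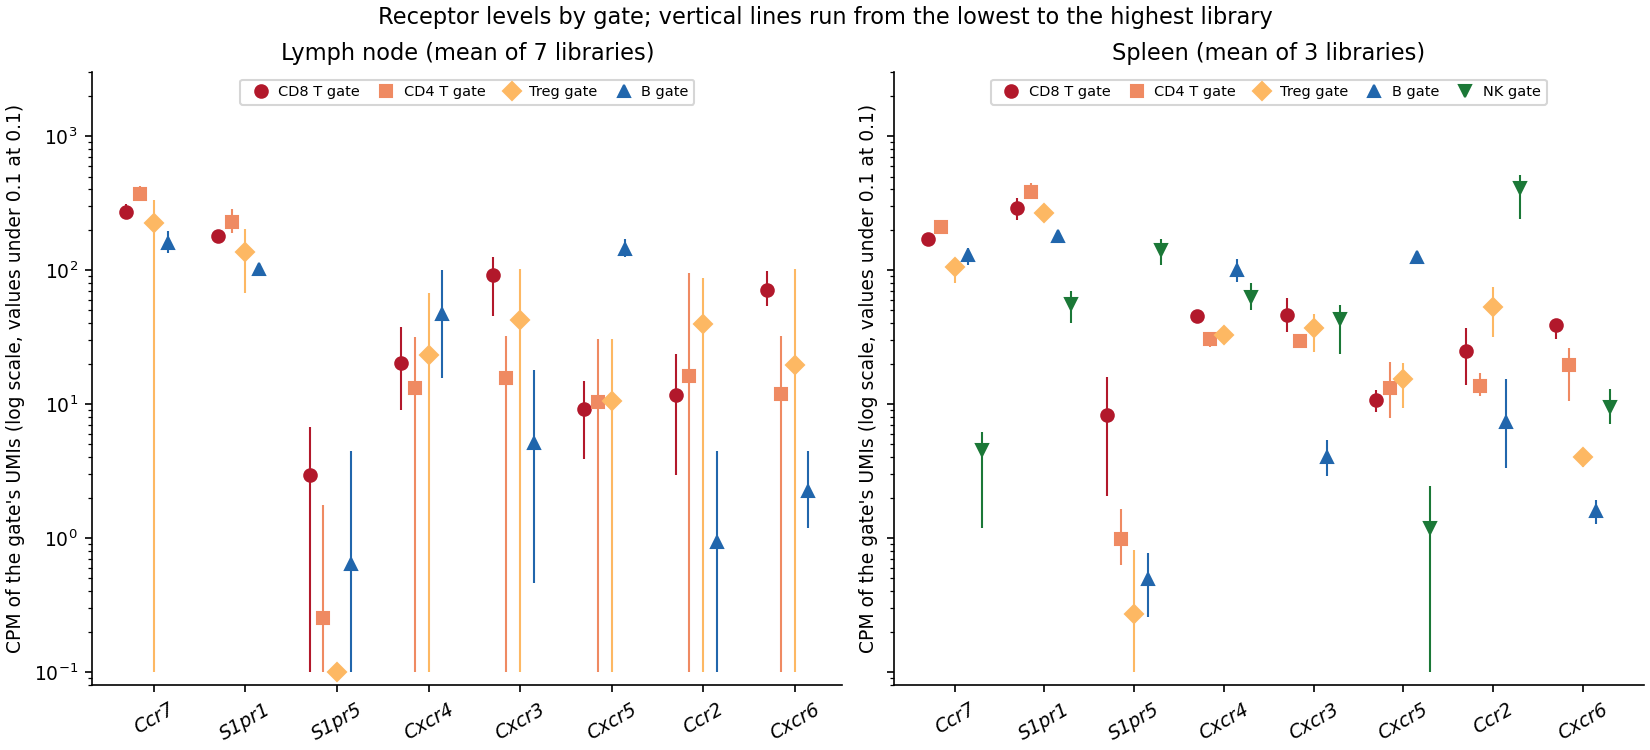
Levels of the 8 receptors by gate in LN (left) and spleen (right), as CPM of all UMIs of the gate on a log axis; symbols are means over libraries and vertical lines run from the lowest to the highest library. LN NK cells are not drawn. Of the gates drawn, Cxcr5 stands highest in B cells, Cxcr3 and Cxcr6 in LN CD8 T cells, and S1pr5 and Ccr2 in spleen NK cells.

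CD8 T cells of the LN answer how the receptors follow 0, 1 or 2 edited alleles. All 8 members passed the filter on low counts and were tested there with the edgeR quasi-likelihood test. The filter asks for 4.42 CPM in 2 libraries. S1pr5 met it only in the 2 homo libraries, Ccr2 only in the 5 Y665F libraries and Cxcr5 in 1 WT and all Y665F libraries, so these 3 passed only with the libraries in which they are high, and their calls are given as a description. Of the other 5, which met the filter in WT as well, Cxcr3 and Cxcr6 were called in homo. Against WT, 5 of 8 in all were called in homo (4 higher, 1 lower), where 1.92% of 9542 genes were called (1.36% higher and 0.555% lower). Since the members were chosen with earlier results of these data known, these shares are a description and no test of the set. In het, 2 of 8 were called, both higher, beside 0.933% of genes. Between homo and het none of 8 was called, beside 0.0105% of genes, although 3 members had an unadjusted p under 0.05 in edgeR (6.51% of genes). With no filter, 6 of 8 were called in homo, those 5 and Cxcr4, beside 1.77% of 16048 genes. With an absolute log2 fold change over 1 added to the rule, 4 of 8 were called in homo (1.16% of genes), and with the DESeq2 test 1 of 8, Cxcr3 (0.482%). Leaving out het replicate 2 left 2 calls of 8, beside 122 of 9156 genes. Fits without WT replicate 2, homo replicate 1 or homo replicate 2 keep 1 library in a group. They had fewer calls than the main fit, among the members and among all genes. The fit without WT replicate 1 also keeps 1 library in a group, and it had more calls, among the members and among all genes. Cxcr3 kept its call in each fit without 1 library.

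**Figure D2:**
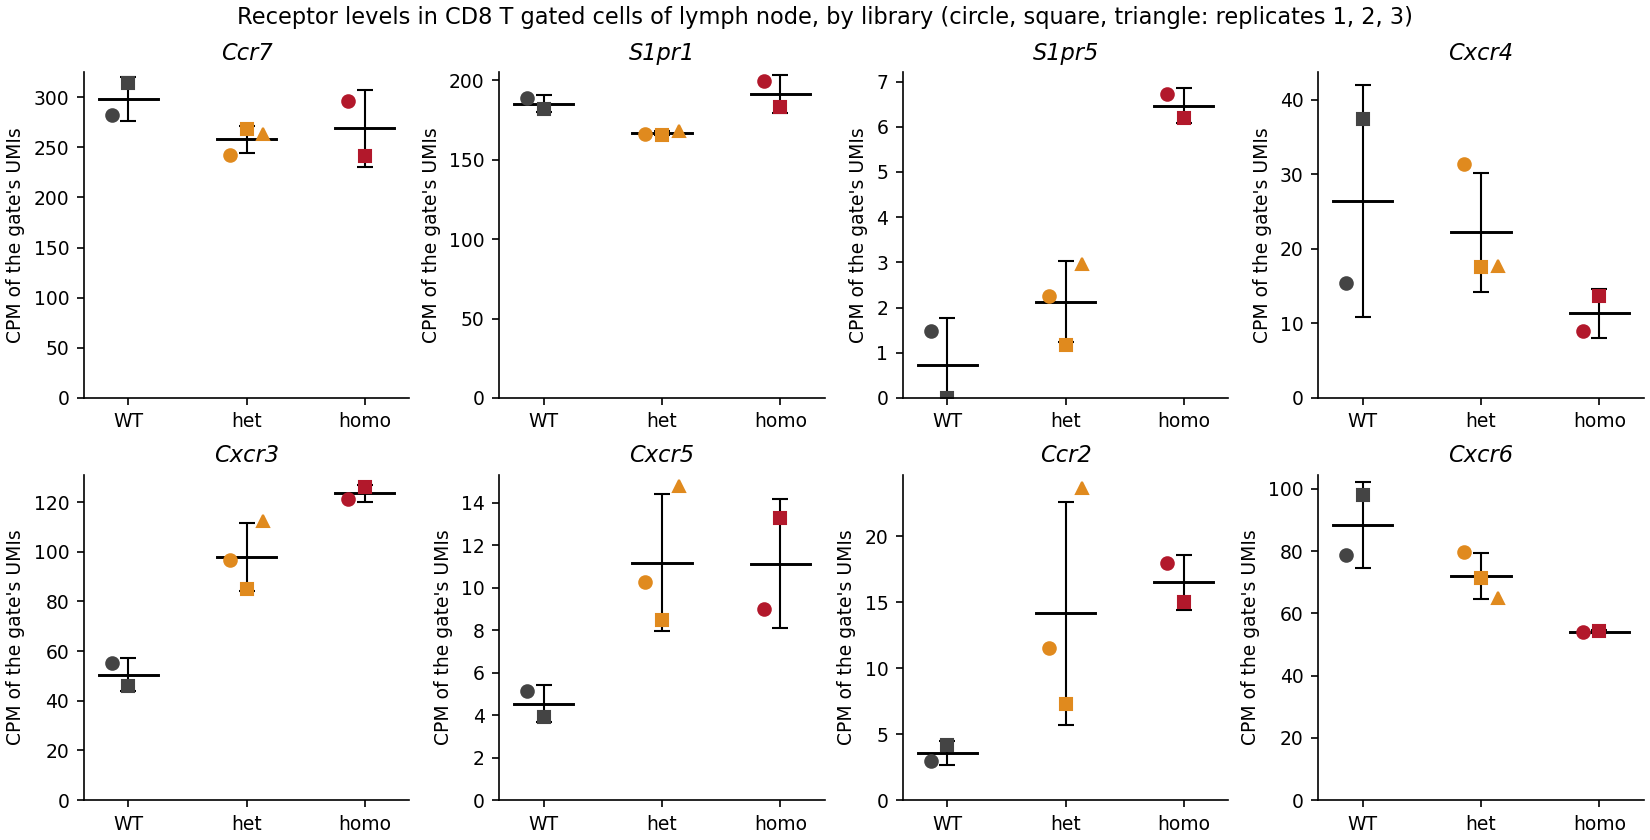
CPM of each receptor in LN CD8 T cells, 1 point per library, with the mean (long bar) and standard deviation (SD, whiskers) of each genotype; axes start at 0. Cxcr3, Ccr2 and Cxcr5 lie above WT in all 5 Y665F libraries, and Cxcr6 lies lowest in the homo libraries, at 53.9 and 54.4 CPM. How many of all genes lie so was not counted, so these orders are descriptions.

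Cxcr3, the receptor of the interferon-induced chemokines Cxcl9 and Cxcl10, showed the steadiest change. Its level was 55.2 and 45.8 CPM in WT, 96.6, 84.9 and 112 CPM in het libraries and 121 and 126 CPM in homo. No library overlapped with one of another genotype, and the levels stood in the order of edited alleles. Group means were 50.5 ± 6.59 (SD, n = 2), 97.9 ± 13.7 (n = 3) and 124 ± 3.37 CPM (n = 2). Cxcr3 rose by 1.41 on the log2 scale in homo (standard error, SE, 0.157, edgeR adjusted p 4.02e-06) and by 0.99 in het (SE 0.137, adjusted p 0.000163). The homo and het levels differed by 0.41 (SE 0.133, adjusted p 0.586). The het call was lost without WT replicate 2 (0.78, adjusted p 0.199).

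Ccr2, which answers Ccl2 and marks effector and memory cells among T cells, was scarce and higher with the edit. WT libraries held 2.94 and 4.19 CPM (4 and 15 UMIs), het libraries 11.5, 7.32 and 23.6 CPM (92, 25 and 8 UMIs), and homo libraries 17.96 and 15.03 CPM (8 and 34 UMIs). Every Y665F library lay above both WT libraries, and the het and homo ranges overlapped. Ccr2 rose by 2.08 in homo (SE 0.429, edgeR adjusted p 0.00647) and by 1.53 in het (SE 0.365, adjusted p 0.0361). It met the filter only in the Y665F libraries, in which it is high, so these calls are a description. The homo call was lost without WT replicate 2 (2.42, adjusted p 0.142) or homo replicate 2 (2.20, adjusted p 0.361). The het call was lost without WT replicate 1 (adjusted p 0.110), WT replicate 2 (0.537), het replicate 1 (0.434) or homo replicate 2 (0.0546).

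S1pr5, an egress receptor of effector cells, was counted in few molecules. WT libraries held 2 and 0 UMIs (1.47 and 0 CPM), het libraries 18, 4 and 1 (2.26, 1.17 and 2.95 CPM), and homo libraries 3 and 14 (6.74 and 6.19 CPM). The homo libraries lay above all others. Pooled over libraries, the homo CPM was 15.5 times that of WT with a 95% counting interval of 3.68 to 138, and the het CPM 4.84 times (1.196 to 42.3). The edgeR log2 fold change in homo was 3.87 (SE 0.956, adjusted p 0.0294), a value that depends on the prior count since 1 WT library is at 0, in a test that S1pr5 entered only through the homo libraries. With no filter it was 3.85 (SE 0.879, adjusted p 0.00176). The call was lost without WT replicate 2 (2.09, adjusted p 0.549), het replicate 2 (0.0570), homo replicate 1 (0.0712) or homo replicate 2 (0.454), and the fold was 7.27 without WT replicate 1. In B-gated cells of homo replicate 1, S1pr5 stood at 4.47 CPM from 1 UMI and in the other 6 LN libraries at 0.

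Cxcr5, which is best known on B cells, was also higher in CD8 T cells with the edit. Its levels were 5.15 and 3.91 CPM in WT (7 and 14 UMIs), 10.3, 8.49 and 14.8 CPM in het (82, 29 and 5 UMIs) and 8.98 and 13.3 CPM in homo (4 and 30 UMIs). All 5 Y665F libraries lay above WT, with het and homo intermingled. Cxcr5 met the filter in 1 WT library and all Y665F libraries, so its calls are a description. The homo difference was called at 1.61 (SE 0.403, edgeR adjusted p 0.0335), while the het difference of 1.27 did not pass (SE 0.330, adjusted p 0.0626), though it was called with no filter (1.27, adjusted p 0.0360) and with a gate minimum of 1 UMI (1.34, adjusted p 0.0342). The homo call was lost without WT replicate 2 (1.30, adjusted p 0.450), het replicate 1 (0.0543), het replicate 2 (0.0597) or homo replicate 2 (1.05, adjusted p 0.734). Bcl9l, which overlaps Cxcr5, differed by 0.17 (SE 0.147, adjusted p 0.666).

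Cxcr6, a receptor of tissue-resident memory cells, was the 1 member called lower, while Cxcr4, described further on, was lower by more without being called. WT libraries held 78.7 and 98.1 CPM, het libraries 79.6, 71.4 and 65.0 CPM and homo libraries 53.9 and 54.4 CPM. Both homo libraries lay below all others, and het overlapped with WT. Cxcr6 fell by 0.68 on the log2 scale in homo (SE 0.163, edgeR adjusted p 0.0241). The het difference was −0.20 (SE 0.121, adjusted p 0.661). The homo call was lost without WT replicate 2 (adjusted p 0.425), het replicate 2 (0.0782), homo replicate 1 (0.0854) or homo replicate 2 (0.424), with the log2 difference between −0.77 and −0.51 in those fits. Fyco1, which spans Cxcr6 on the other strand, stood at 35.9 to 44.3 CPM in all 7 libraries (−0.03, SE 0.189, adjusted p 0.984).

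The receptors of node entry and exit passed in neither genotype. Ccr7 measured 282 and 314 CPM in WT, 243, 269 and 263 in het libraries and 296 and 242 in homo (−0.15, SE 0.125, edgeR adjusted p 0.649). S1pr1 measured 189 and 182 CPM in WT, 166, 166 and 168 in het libraries and 199.8 and 183 in homo (0.08, SE 0.125, adjusted p 0.842). For both, the homo range overlapped with that of WT and the het libraries lay below it.

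Cxcr4, the Cxcl12 receptor, varied widely between replicates. WT libraries held 15.4 and 37.5 CPM, het libraries 31.5, 17.6 and 17.7 and homo libraries 8.98 and 13.7. The homo libraries lay below both WT libraries, and the difference of −1.16 did not pass (SE 0.537, edgeR adjusted p 0.399). With no filter Cxcr4 was called at −1.17 (edgeR adjusted p 0.00578). Without WT replicate 1 it was called at −1.44 (adjusted p 0.0389), and without WT replicate 2 it was −0.23 (adjusted p 0.935).

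The summed memory and effector markers of the CD8 T gate were higher in each Y665F library than in WT, without a test. Ccl5 is among those genes, and which genes carry the sums was not examined. Transcripts of 12 memory and effector markers summed to 2086 and 1789 CPM in WT, 3780, 3269 and 4307 in het libraries and 5033 and 5601 in homo, with 11 or 12 of the 12 detected, while the 6 naive markers summed to 2254 to 2537 CPM in all libraries. More memory cells and more of these transcripts per cell cannot be told apart in such sums. Neutrophil markers, 8 genes, were at 0 in 6 libraries and 0.280 CPM in WT replicate 2. Ccl5, a chemokine of memory and effector CD8 T cells, marked 8.52 and 7.46% of CD8 T cells in WT against 36.6, 27.6 and 33.6% in het, with 39.7 and 49.1% in homo. B-gated cells, the background, held a Ccl5 UMI in 0.116 to 0.567% of cells in the 4 deeper WT and het libraries, 0.845% in het replicate 3, 1.76 and 0.594% in homo. With cells thinned to 500 UMIs the WT shares were 3.49 and 4.45%, the het shares 14.5, 15.96 and 39.3% and the homo shares 37.7 and 36.0%, against at most 0.693% of B cells in the 5 deeper libraries and 6.94 and 6.15% in the shallow het replicate 3 and homo replicate 1 (5 of 72 and 4 of 65 cells). These thinned shares come from the second random draw described further on. Barcodes under 500 UMIs were dropped, so the thinned shares of het replicate 3 and homo replicate 1 describe the deepest 23.3 and 28.5% of their barcodes. The CD8 T share stood above the B-cell share in each library, and the B-cell share was highest in the shallow pair. Its part in the values below was not tested. Cells with and without a Ccl5 UMI were therefore also measured separately.

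In neither fraction did a member pass the test, and DESeq2 called none either. In cells with Ccl5, 0 of 5 members tested were called in homo against WT, beside 0.059% of 5086 genes, and 2 of the 5 had an unadjusted p under 0.05 in edgeR, as did 7.49% of genes. Without Ccl5 it was 0 of 5, beside 0.305% of 8515 genes, with 3 at an unadjusted p under 0.05 and 8.87% of genes. Cxcr3 with Ccl5 stood at 150.4 and 172 CPM in WT, 164, 161 and 181 in het libraries and 168 and 187 in homo (0.19, SE 0.212, adjusted p 0.875), so the genotypes overlapped. Without Ccl5 it was 43.1 and 33.2 in WT, 48.4, 48.5 and 70.9 in het libraries and 84.3 and 52.7 in homo, with every Y665F library above WT (0.75, SE 0.237, adjusted p 0.219). A cell without a Ccl5 UMI can still be a memory cell at these depths.

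Cxcr6 was lower in the Y665F libraries among cells with Ccl5, without passing the test. It measured 105 and 107 CPM in WT, 72.1, 66.7 and 47.2 in het libraries and 35.7 and 48.5 in homo. Every Y665F library lay below both WT libraries, het and homo overlapped, and the homo difference was −1.14 (SE 0.292, edgeR adjusted p 0.0968). It was called without het replicate 3 (−1.16, adjusted p 0.0357). In cells without Ccl5, Cxcr6 stood at 75.4 and 97.2 CPM in WT and at 68.2 and 61.4 in homo (−0.46, SE 0.197, adjusted p 0.486). Cxcr4 without Ccl5, at −1.62 (SE 0.684, adjusted p 0.534), was called without WT replicate 1 (−1.94, adjusted p 0.00558) and was −0.52 without WT replicate 2.

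Cxcr5, not tested in either fraction, rested on few UMIs in both. With Ccl5 it stood at 19.6 and 21.5 CPM in WT (3 and 7 UMIs), 15.03, 15.3 and 31.5 in het libraries and 5.10 and 18.6 in homo (1 and 23 UMIs). Without Ccl5 it was 3.32 and 2.15 CPM in WT, 6.88, 5.20 and 4.73 in the het libraries, and in homo 12.04 and 6.83. The homo libraries lay below WT in the first fraction (24 UMIs in homo and 10 in WT) and above it in the second (10 and 11 UMIs). No counting interval was made, so opposite orders are not read from these values.

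S1pr5 was counted almost wholly in the cells with Ccl5, and Ccr2 so in the Y665F libraries but not in WT. For S1pr5 the cells with Ccl5 held 2 of 2 UMIs in WT, 23 of 23 in het and 16 of 17 in homo. For Ccr2 they held 6 of 19 UMIs in WT, 113 of 125 in het and 39 of 42 in homo. For Cxcr3 the counts were 79 of 239, 747 of 1099 and 264 of 339. These cells held 9.71% of all CD8 T UMIs in WT, 38.9% in het and 52.9% in homo. By contrast the cells with Ccl5 held 246 of 679 Ccr7 UMIs in homo, or 36.2%. Neither S1pr5 nor Ccr2 had enough counts in either fraction to be tested.

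**Figure D3:**
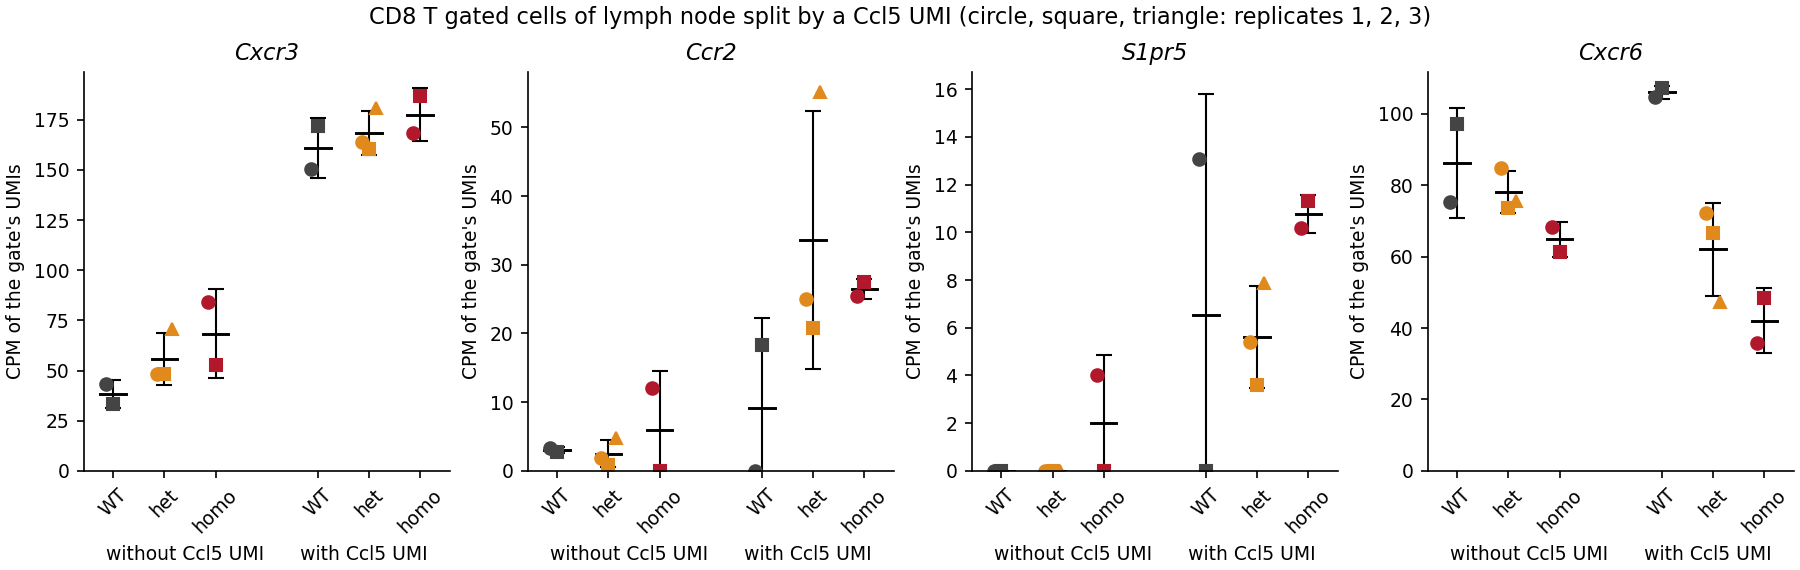
CPM of 4 receptors in LN CD8 T cells without (left 3 groups of each panel) and with (right 3 groups) a Ccl5 UMI, 1 point per library with mean and SD. Cxcr3 is at 150.4 to 187 CPM in all 7 libraries among cells with Ccl5, while Cxcr6 there runs from 105 and 107 CPM in WT to 35.7 and 48.5 CPM in homo.

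CD4 T cells gave fewer counts, and 2 of 8 members, Ccr7 and S1pr1, passed the filter. Neither was called in homo (0.588% of 6463 genes), in het (0.526%) or between homo and het (0.186%), by edgeR or DESeq2, and 1 of them had an unadjusted p under 0.05, in homo (7.57% of genes). S1pr1 stood at 195 and 190.0 CPM in WT, 231, 199.7 and 244 in het libraries and 256 and 287 in homo. Each Y665F library lay above both WT libraries, and the homo difference of 0.60 did not pass after adjustment (SE 0.207, edgeR p 0.00361, adjusted p 0.229). Ccr7 stood at 369 and 353 CPM in WT, 357, 371 and 427 in het libraries and 384 and 337 in homo (−0.04, SE 0.202, adjusted p 0.990), with the genotypes intermingled. The 2 shallow libraries hold 66 and 63 of these cells. Of the members that were not tested, Cxcr4 summed to 41 UMIs over WT, 71 over het and 4 over homo libraries, Cxcr6 to 18, 27 and 4, and Ccr2 to 9, 4 and 5. S1pr5 had 2 UMIs in all, both in WT replicate 2.

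Cxcr5, which marks follicular helper cells among CD4 T cells, was scarce in the edited libraries. WT libraries held 6 and 24 UMIs (15.6 and 21.3 CPM), het libraries 2, 1 and 1 (0.777, 1.28 and 30.5 CPM), and homo libraries 0 and 1 (0 and 2.64 CPM). The het library at 30.5 CPM rests on 1 UMI in 66 cells. Pooled over libraries, the homo CPM was 0.123 times that of WT (95% counting interval 0.00301 to 0.738) and the het CPM 0.0595 times (0.0152 to 0.169). Cxcr5 did not pass the filter here. With no filter the het difference was −3.74 (SE 0.627, edgeR adjusted p 3.87e-06, beside 0.481% of 14350 genes called) and the homo difference −2.90 (SE 1.07, adjusted p 0.537). Bcl9l differed by 0.74 in het (SE 0.224, adjusted p 0.120). B-cell markers, 7 genes, summed to 26.0 and 14.2 CPM in the WT CD4 T gates and to 0 to 10.2 CPM in the others, against 8509 CPM or more in the B gates, and their part in the Cxcr5 value was not tested.

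The difference between the gates was tested directly for 7 members, as the homo effect in CD8 T minus that in CD4 T cells. Cxcr5 was the 1 called, at 4.61 on the log2 scale (SE 1.12, edgeR adjusted p 0.0446), beside 0.0918% of 8712 genes. It met the filter of this fit (10.5 CPM in 2 of all CD8 T and CD4 T sums) in both WT and 1 het CD4 T sums and in 1 het and 1 homo CD8 T sums, so it passed through the sums in which it is high, and the call is a description. With no filter the value was 4.61 (adjusted p 0.0286). The call was lost without WT replicate 2 (adjusted p 1), het replicate 1 (0.0802), het replicate 2 (0.0658) or homo replicate 2 (9.09, adjusted p 0.854). For S1pr1 the difference was −0.50 (SE 0.215, adjusted p 0.739) and for Cxcr3 1.39 (SE 0.641, adjusted p 0.811), so the Cxcr3 change in CD8 T cells was not shown to differ from that in CD4 T cells. Cxcr3 in CD4 T cells held 25 UMIs in WT, 26 in het and 7 in homo. Its pooled homo CPM there was 1.03 times that of WT (counting interval 0.376 to 2.45). The pooled het CPM was 0.464 times WT (0.257 to 0.838), against 1.93 times (1.68 to 2.23) in CD8 T cells. Het CD4 T libraries ran from 0 to 23.0 CPM and overlapped with WT (15.1 to 20.8 CPM). Whether the het effect differs between the gates was not tested.

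**Figure D4:**
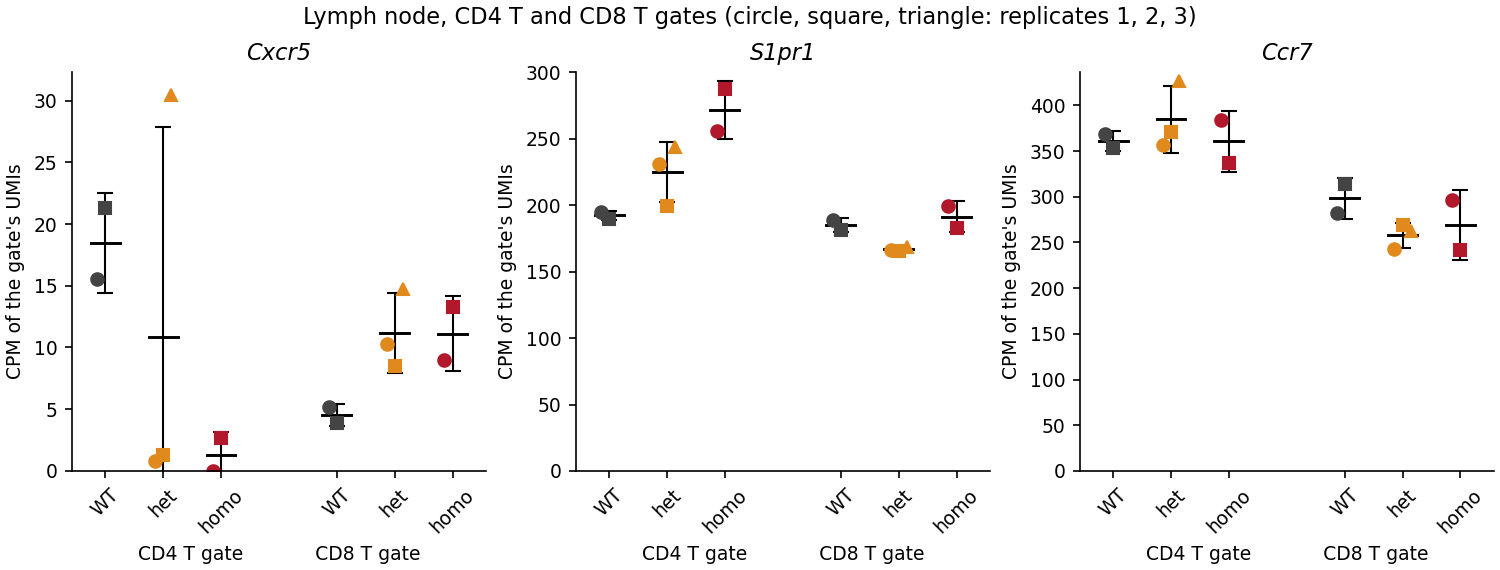
CPM of Cxcr5, S1pr1 and Ccr7 in LN CD4 T (left 3 groups) and CD8 T cells (right 3 groups), 1 point per library with mean and SD, axes from 0. Cxcr5 in CD4 T cells is at 15.6 and 21.3 CPM in WT and at 0 and 2.64 CPM in homo, whereas in CD8 T cells WT is lowest, and the het point at 30.5 CPM is 1 UMI.

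All T-gated cells together, which join both lineages and cells that could not be placed, called 2 of 8 members in homo (3.30% of 10362 genes) and 1 in het (1.37%). Cxcr3 measured 35.1 and 29.9 CPM in WT, 62.4, 57.8 and 83.3 in het libraries and 95.7 and 84.3 in homo. It rose by 1.54 in homo (SE 0.150, edgeR adjusted p 6.87e-06) and by 1.07 in het (SE 0.132, adjusted p 0.000214), with the genotypes in the order of edited alleles. S1pr5 held 2 and 2 UMIs in WT, 19, 4 and 1 in het libraries and 7 and 18 in homo, and rose by 3.77 in homo (SE 0.705, adjusted p 0.00425). It met the filter of this gate only in the homo libraries (7.13 and 4.41 CPM against at most 1.42 elsewhere), so this is a description too, and with no filter the value was 3.75 (adjusted p 2.54e-05, beside 3.29% of 17413 genes called). That call was lost without WT replicate 2 (2.98, adjusted p 0.183) or homo replicate 2 (4.22, adjusted p 0.0960). Ccr2 (0.94, adjusted p 0.185) and Cxcr6 (−0.39, adjusted p 0.196) did not pass in this gate. Cxcr4 (−1.17, adjusted p 0.464) passed without WT replicate 1 (−1.53, adjusted p 0.0180). Ccr7 (−0.05, adjusted p 0.866), S1pr1 (0.21, adjusted p 0.364) and Cxcr5 (0.31, adjusted p 0.717) did not pass.

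LN B cells showed no call among the 5 members tested, in homo or in het. EdgeR called 0 of 9179 genes there in homo (0.0%, with 698 at an unadjusted p under 0.05 and 1 called by DESeq2) and 10 in het (0.109%). No member had an unadjusted p under 0.05 in either contrast (7.6% of genes in homo and 6.14% in het) or was called by DESeq2. Cxcr5 measured 131 and 128 CPM in WT, 148, 142 and 172 in het libraries and 156 and 125 in homo (0.09, SE 0.167, adjusted p 0.960). Cxcr4 measured 48.6 and 99.96 CPM in WT, 67.2, 34.7 and 15.7 in het libraries and 40.2 and 22.0 in homo, with both homo libraries below WT (−1.45, SE 0.846, edgeR adjusted p 0.783). With cells of at least 500 genes it was called (−2.42, edgeR adjusted p 0.00486), beside 26 of 9006 genes. That setting left 20 B cells in het replicate 3, against 710 in the main gate. Ccr7 ran from 135 to 197 CPM and S1pr1 from 91.1 to 111 CPM over the 7 libraries. Cxcr3 had 1 to 6 UMIs per library (1.79, SE 1.12, adjusted p 0.754), Cxcr6 1 to 5 and Ccr2 0 to 3, and S1pr5 had 1 UMI in all.

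LN NK cells were too few for a test of any member, with 53 cells in WT, 31 in het and 11 in homo. Of 350 genes tested there none was called by edgeR, with 14 in homo and 13 in het at an unadjusted p under 0.05. Ccr2 had 21 UMIs in WT, 23 in het and 1 in homo, and S1pr5 10, 18 and 0. Cxcr3 had 9, 8 and 1, S1pr1 2, 2 and 2, Cxcr6 2, 0 and 0, Ccr7 and Cxcr4 1, 1 and 0 each, and Cxcr5 none. The pooled homo to WT ratio of CPM had a 95% counting interval of 0.00955 to 2.46 for Ccr2 and an upper bound of 3.70 for S1pr5, so no difference was detectable at this depth.

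Other genes of the homing pathway were followed as 6 lists, 71 genes with 1 row each, also chosen with earlier results of these data known. In LN CD8 T cells 45 were tested in homo, and 9 were called higher and 2 lower, beside 1.92% of all genes called, with a median log2 fold change of −0.01 beside −0.01 for all genes. In het 5 were higher and 2 lower, beside 0.933% of all genes. The ligands Ccl5 (3.31, edgeR adjusted p 0.00101) and Ccl4 (2.47, adjusted p 1.36e-05) rose together with Tbx21, which encodes T-bet (1.71, adjusted p 7.98e-05). Gpr15, a receptor of gut and skin homing, was called too (2.98, adjusted p 0.000939), at 0.736 and 2.24 CPM in WT and 8.98 and 15.03 CPM in homo, but it met the filter in 0 WT libraries and is a description like S1pr5. Ccr9, the receptor that leads cells to small intestine, fell by 1.76 (adjusted p 2.03e-05). The partners of S1pr1 did not pass: Klf2, which drives S1pr1, differed by 0.46 (adjusted p 0.103) and Cd69, which holds S1PR1 inside the cell, by −0.46 (adjusted p 0.112).

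In LN CD4 T cells 36 listed genes were tested, with 3 higher and 1 lower in homo (0.588% of all genes called) and none called in het (0.526%). S1pr4, another receptor of sphingosine-1-phosphate (1.39, edgeR adjusted p 1.57e-05), Klf2 (0.98, adjusted p 0.000202) and Itgb7 (0.84, adjusted p 0.00589) rose, and Rgs1, which dampens chemokine signals, fell by 2.24 (adjusted p 0.00186). S1pr1 itself did not pass, as given above, while Cd69 differed by −0.65 (adjusted p 0.189). In all T cells 53 were tested in homo, 11 higher and 7 lower beside 3.30% of all genes, among them Ccr8 (−2.20, adjusted p 0.00160) and Ccl3 (2.46, adjusted p 0.0489), which met the filter only in the 2 homo libraries. In B cells edgeR called 0 of 40, and 0.0% of all genes in homo. With Ccl5 1 of 37 was called (0.059% of all genes), Ccl5 itself, which made the split. Without Ccl5 1 of 40 was called (0.305%), Ccr9, which fell by 0.999 (adjusted p 0.0423). Itgb7 was the 1 listed gene whose homo effect differed between CD8 T and CD4 T cells (−0.95, adjusted p 0.00389), beside 0.0918% of all genes.

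Spleen allowed a look at both edits, without replicates. Ratios to WT carry 95% counting intervals of UMIs, which cover counting error only, and the call is a ratio past 2-fold with at least 10 UMIs. In CD8 T cells, 2 of 8 members were past 2-fold in Y665F (9.21% of 13209 genes) and 1 of 8 in Y665H (6.85% of 13167). The median log2 ratio of all genes was −0.16 in CD8 T and CD4 T cells of Y665F, −0.10 in its B and NK cells, and between −0.04 and 0.02 in Y665H, so Y665F ratios are read against that shift. Of the genes past 2-fold in Y665F CD8 T cells, 479 were higher and 737 lower, and with TMM scaling 614 and 554.

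S1pr5 in spleen CD8 T cells stood at 6.71 CPM in WT, 2.08 in Y665H and 15.9 in Y665F (89, 23 and 272 UMIs). The ratio to WT was 0.309 (0.187 to 0.494) in Y665H and 2.37 (1.86 to 3.05) in Y665F, on opposite sides of WT. Of these UMIs 88 of 89, 23 of 23 and 272 of 272 lay in cells with Ccl5. Within those cells S1pr5 was at 15.9, 5.26 and 19.8 CPM, so the Y665H library was low there too.

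Ccr2 and Cxcr3 were highest in the Y665F library. Ccr2 stood at 13.8, 24.2 and 37.1 CPM in WT, Y665H and Y665F, a ratio of 1.75 (1.45 to 2.13) in Y665H and 2.69 (2.28 to 3.19) in Y665F, or 4.31 in Y665F without the 5% deepest barcodes. Cxcr3 stood at 34.8, 43.6 and 61.4 CPM, a ratio of 1.25 (1.10 to 1.43) and 1.77 (1.58 to 1.98). The share of CD8 T cells with Ccl5 was 37.6, 34.8 and 77.5%, against a background of 13.3, 11.8 and 17.3% of B-gated cells. Thinned to 2000 UMIs, in the second random draw described further on, it was 23.5, 21.3 and 65.5% against 6.87, 5.16 and 7.49% of B cells. The part of that background in the cells with Ccl5 was not tested. Within cells with Ccl5 Cxcr3 was 66.2, 80.0 and 72.2 CPM and Ccr2 31.0, 46.6 and 45.3 CPM. Memory and effector markers summed to 3117, 2918 and 7298 CPM in the whole gate, and neutrophil markers, all 8 detected, to 120.0, 2985 and 2618 CPM. Whether the neutrophil transcripts bear on Ccr2 was not tested.

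The remaining members lay nearer to WT in spleen CD8 T cells. Cxcr6 was at 42.7, 42.8 and 30.5 CPM, with a Y665F ratio of 0.714 (0.633 to 0.806), while Fyco1 had a ratio of 0.634 (0.565 to 0.711). S1pr1 was at 344, 294 and 237 CPM (Y665F ratio 0.687, 0.658 to 0.717) and Ccr7 at 189, 173 and 152 CPM (0.806, 0.763 to 0.852). Cxcr5 was at 12.7, 8.75 and 10.9 CPM and Cxcr4 at 43.4, 47.1 and 46.9 CPM. On the log2 scale the Y665F ratios of Ccr7 (−0.31) and S1pr1 (−0.54) stand beside the all-gene median of −0.16.

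Spleen CD4 T cells had 2 of 8 members past 2-fold in Y665F (9.13% of 11957 genes) and 0 in Y665H (6.85% of 12636). Cxcr6 stood at 21.8 CPM in WT, 26.4 in Y665H and 10.6 in Y665F, a Y665F ratio of 0.487 (0.349 to 0.668), and S1pr5 rested on 5, 6 and 8 UMIs. The Cxcr6 ratio was inside 2-fold with TMM scaling (0.537), at most 5% mitochondrial UMIs (0.539) or without the 5% deepest barcodes (0.511), and 0.361 when cells were thinned. Cxcr5 stood at 11.1, 20.7 and 7.89 CPM, which is 1.86 times WT in Y665H (1.44 to 2.42) and 0.709 times in Y665F (0.472 to 1.05). S1pr1 was at 447, 371 and 337 CPM and Ccr7 at 230.0, 204 and 196 CPM, with WT highest for both. Cxcr3 (27.8, 30.4 and 31.4 CPM), Ccr2 (12.6, 11.6 and 17.0 CPM) and Cxcr4 (26.6, 33.4 and 31.97 CPM) differed less.

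Spleen B cells had 1 of 8 members past 2-fold in Y665H (7.25% of 12969 genes) and 0 in Y665F (7.76% of 12082). The 1 was Ccr2, at 3.33, 15.5 and 3.36 CPM in WT, Y665H and Y665F, and its 169 UMIs in Y665H came from 30 of 2347 cells. The ratio of 4.64 (3.06 to 7.31) became 7.11 with no UMI of another class allowed and 16.6 without the 5% deepest barcodes. Monocyte and macrophage markers summed to 137, 408 and 208 CPM in these gates with 7, 8 and 7 of 8 detected, and their part in the Ccr2 value was not tested. Cxcr4 stood at 81.7, 97.3 and 121 CPM (Y665F ratio 1.49, 1.32 to 1.68), Ccr7 at 109, 133 and 147 CPM (1.35, 1.21 to 1.504) and Cxcr5 at 119, 131 and 126 CPM (1.06, 0.944 to 1.18). S1pr1 stood at 191.5, 184 and 165 CPM, while Cxcr3 had 29, 32 and 21 UMIs, Cxcr6 15, 14 and 6, and S1pr5 6, 5 and 1.

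Spleen NK cells had 2 of 8 members past 2-fold in Y665F (11.6% of 9638 genes) and 0 in Y665H (6.87% of 10190). Cxcr3 stood at 54.7, 51.0 and 23.7 CPM in WT, Y665H and Y665F (89, 90 and 20 UMIs), a Y665F ratio of 0.434 (0.253 to 0.710), and Ccr7 had 10, 11 and 1 UMIs. The Cxcr3 ratio was inside 2-fold with no UMI of another class allowed (0.562) and with thinned cells (0.597). Ccr2 stood at 478, 514 and 242 CPM, just inside 2-fold at 0.507 (0.432 to 0.592) in Y665F. S1pr5 was at 0.636 times WT in Y665H (0.526 to 0.767) and 0.871 in Y665F (0.699 to 1.08). S1pr1 was at 70.1, 40.3 and 56.99 CPM and Cxcr4 at 50.4, 58.99 and 80.7 CPM, and Cxcr6 had 14, 23 and 6 UMIs. For Cxcr3 and Ccr2 the Y665F library was thus the lowest in NK cells and the highest in CD8 T cells. Neutrophil markers summed to 2277, 426 and 386 CPM in the NK gates, all 8 detected, and their part in these values was not tested.

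**Figure D5:**
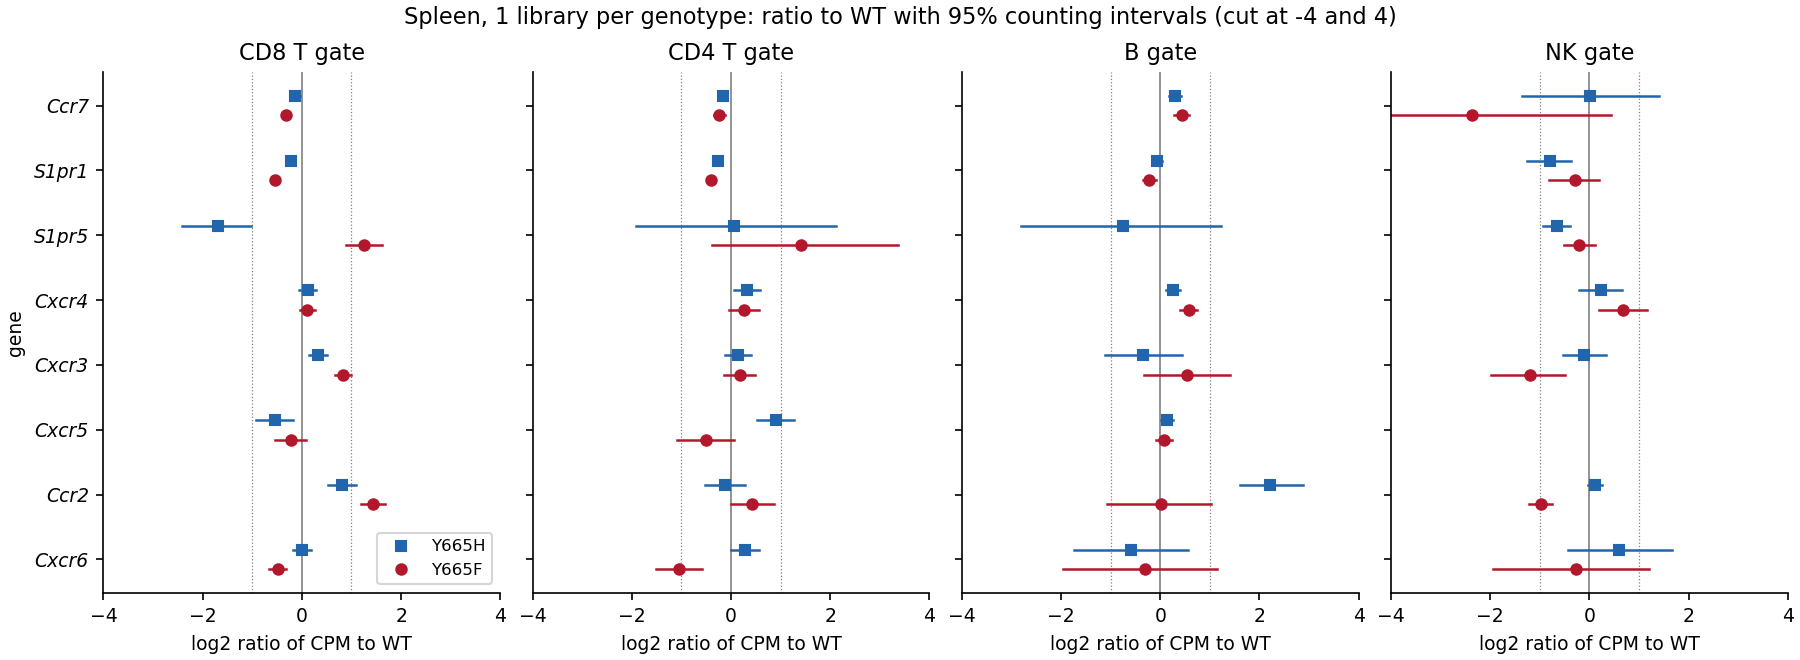
Log2 ratio of CPM to WT in 4 spleen gates for Y665H (squares) and Y665F (circles), with 95% counting intervals and dotted lines at 2-fold; 1 library per genotype. In CD8 T cells S1pr5 lies below −1 in Y665H and above 1 in Y665F, and Ccr2 of NK cells lies at −0.98 in Y665F.

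Shares of cells with a UMI were compared after each barcode was thinned to 500 UMIs in LN or 2000 in spleen and gated again, which left 232 to 676 LN and 1371 to 1757 spleen CD8 T cells per library. Barcodes under that depth were dropped. This kept 23.3% of barcodes in het replicate 3 and 28.5% in homo replicate 1, their deepest, and 93.8 to 100% in the other LN libraries. In LN CD8 T cells, Cxcr3 was then seen in 1.45 and 1.92% of cells in WT, in the het libraries in 2.84, 4.78 and 5.603%, and in homo in 6.58 and 3.67%. Every Y665F library lay above WT. In a second random draw the WT shares were 1.45 and 1.72%, those of het 4.97, 3.82 and 3.49% and those of homo 7.17 and 5.47%. Y665F again lay above WT. The order within het changed, and homo lay above het only in the second draw, so no order of het and homo is read. B-gated cells of the first draw gave at most 0.136% in the 5 deeper libraries and 1.27 and 2.82% in het replicate 3 and homo replicate 1, from 1 of 79 and 2 of 71 cells. Before thinning, the CD8 T shares of WT were 6.44 and 5.94%, those of het 26.3, 15.1 and 6.06%, and those of homo 6.98 and 16.1%, at median depths of 526 to 3925 UMIs, and those of B cells 0.0944 to 0.639%. In spleen CD8 T cells Cxcr3 was seen in 5.71% of WT, 7.08% of Y665H and 10.6% of Y665F cells, against 0.364, 0.135 and 0.517% of B cells. Before thinning, CD8 T shares were 16.1, 19.6 and 34.3% at median depths of 6848, 6988 and 8700 UMIs, and those of B cells 1.10, 0.937 and 1.10% at 3925.5, 3947 and 3845.

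Ccr2 and S1pr5 followed in the spleen shares. Ccr2 was seen in 2.32, 1.68 and 6.43% of thinned CD8 T cells of WT, Y665H and Y665F, against at most 0.541% of B cells, and in 5.30, 6.57 and 17.2% before thinning. S1pr5 was seen in 1.49, 0.438 and 4.33%, against at most 0.129% of B cells, and in 2.46, 1.02 and 9.02% before thinning. For Ccr2 the Y665H share lay below WT although its CPM lay above, so no order of these 2 is read from it. Detection together with Cxcr3 was read from that second draw, which left 1703, 1360 and 1785 spleen CD8 T cells. Among cells with a Cxcr3 UMI, Cxcr6 was seen in 11.7% (95% exact binomial interval 5.99 to 19.97), 14.1% (7.74 to 23.0) and 3.37% (1.25 to 7.19) of WT, Y665H and Y665F cells. Among cells without one it was seen in 6.53, 7.02 and 5.91%. Ccr7 was seen in 19.1, 16.3 and 20.2% of cells with Cxcr3 and in 30.9, 29.3 and 24.95% of the others.

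Likeness of pattern was described over 12 spleen pools (3 genotypes by CD8 T, CD4 T, B and NK cells), as Pearson's r of log2(CPM + 10) among 6881 genes. Pools of 1 genotype share a library, and the r mainly reflects how the 4 gates differ. The 2 most like were Rps25 and Rps26 for Ccr7 (both 0.98), Pkd1 (0.99) and Pitpnm2 (0.98) for S1pr1, Ncald and Arl4d for S1pr5 (both 0.99), and Sec11c (0.97) and Far1 (0.95) for Cxcr4. For Cxcr5 they were Map4k1 and Tnfrsf13b (both 0.99), for Cxcr3 4930453N24Rik (0.97) and Saysd1 (0.96), for Ccr2 Cysltr2 and 5830432E09Rik (both 0.99), and for Cxcr6 Hdgfl3 and Gtf2i (both 0.96). Among the members, Ccr7 and S1pr1 were alike (0.95), as were S1pr5 and Ccr2 (0.97), and Ccr7 and S1pr5 ran opposite (−0.96).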

How the data were processed

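The authors deposited raw UMI counts per gene and barcode for 10x single-cell libraries, made with Cell Ranger (5.0.0 for LN and 6.0.0 for spleen, per the file headers) on GRCm38. The submitters' processing notes also list Seurat 4.0, whose filters were not seen in the matrices. T-cell receptor contigs were used for LN. Labels and methods name different kit chemistries, so comparisons stay within a tissue. Bone marrow was not used here.

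A barcode needed 200 genes, with no more than 10% of its UMIs mitochondrial. T cells needed 2 UMIs of Cd3d, Cd3e, Cd3g, Trac, Trbc1 or Trbc2, B cells 2 of a B-cell list with Cd79a, Cd79b and Ms4a1, and NK cells 2 of Ncr1, Klrb1c or Klre1. In B cells the sum of any other class was at most 1/3 of their own. In NK cells this limit held for B-cell UMIs and for the sum of Cd3d, Cd3e, Cd3g and Trac. Trbc1 and Trbc2 UMIs were not limited there, also under the setting with no UMI of another class. In T cells this limit held for B-cell UMIs only. CD8 T cells had Cd8a or Cd8b1 and no Cd4, CD4 T cells Cd4 and no Cd8a, Cd8b1 or Foxp3, and Treg cells Foxp3 and no Cd8a or Cd8b1. No doublet caller was run. Barcodes of mixed class beyond these limits were left out. A T-gated barcode could still hold NK UMIs, also under the setting with no UMI of another class. Their part in the T-cell values was not tested.

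UMIs were summed per library and gate. LN sums were tested with edgeR 4.0.16 (R 4.3.3, TMM, filterByExpr, robust quasi-likelihood fit of all 3 genotypes), with Benjamini-Hochberg adjustment over all genes tested and a threshold of 0.05. DESeq2 1.42.0 was an alternative. The fits were tested on simulated data. Spleen has 1 library per genotype and no test. Its CPM ratios carry exact conditional binomial intervals at 95%, and past 2-fold means an absolute log2 ratio over 1 with at least 10 UMIs in both libraries together. Intervals cover counting error only. Where libraries of 2 genotypes are said not to overlap, the share of all genes that separate so was not counted. LN totals were 2621583 to 16101373 UMIs and spleen totals 36889328 to 47206322. In the LN CD8 T and B gates, where this was checked, no pair of libraries of a group agreed within counting noise.

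The filter on low counts asked for 10 UMIs in a library of median size, in 2 libraries. All 8 members are given in the CD8 T, CD4 T, B and NK gates, and Treg cells and the Ccl5 fractions are described in part. Of 74 listed homing genes (71 with 1 row), those called in homo are named, at most the 5 with the largest change per gate, plus Klf2 and Cd69. Some items of the fixed lists are not reported here. The members and lists were chosen with earlier results of these data known. RefSeq promoters matched 5 of 8 members.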

Additional observations from a re-analysis of the deposited data

Results flagged for a closer look

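The homo effect on Cxcr5 differed between LN CD8 T and CD4 T cells by 4.61 on the log2 scale in the edgeR interaction test (adjusted p 0.0446). Cxcr5 passed the filter on low counts through the sums in which it is high, and it did not pass in the CD4 T gate alone. CD4 T cells of homo held 1 Cxcr5 UMI in all, and the call was lost without WT replicate 2 (adjusted p 1), het replicate 1 (0.0802), het replicate 2 (0.0658) or homo replicate 2 (0.854).

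Cxcr4 in B cells lay below WT in both LN homo libraries (40.2 and 22.0 against 48.6 and 99.96 CPM), whereas in spleen the Y665F library lay above WT, at a log2 ratio of 0.57. The LN difference did not pass (−1.45, edgeR adjusted p 0.783). The difference between the tissues was not tested, since spleen has 1 library per genotype.

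S1pr1 in CD4 T cells lay above WT in both LN homo libraries (256 and 287 against 195 and 190.0 CPM), whereas the spleen Y665F library lay below WT, at a log2 ratio of −0.41. The LN difference did not pass (0.60, edgeR adjusted p 0.229). Between the tissues no test was made either, and the zygosity of the spleen libraries is not in the labels.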

How the results depend on the processing

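No called value changed sign under any alternative run. In LN CD8 T cells, the 5 homo calls became 4 with no UMI of another class (176 of 9399 genes called) and without the 5% deepest barcodes (203 of 9110). With a gate minimum of 1 UMI they became 4, all higher, so Cxcr6 was not called (198 of 9606 genes). They became 1 with the DESeq2 test (46 of 9542 genes) and 0 with cells thinned to 500 UMIs (21 of 4059 genes). When thinned, 4 of 8 members passed the filter, so S1pr5, Ccr2 and Cxcr5 were not retested. Cxcr3 was at 1.53 (adjusted p 0.0654) and Cxcr6 at −0.81 (adjusted p 0.496) when thinned, and over the alternatives they ran from 1.202 to 1.587 and from −0.81 to −0.51. The 2 het calls became 1 with DESeq2 (20 of 9542 genes called), with a log2 fold change over 1 (39 of 9542) or with only the 2 groups compared (85 of 9947). They also became 1 with the replicate block (60 of 9542) and without the 5% deepest barcodes (102 of 9110), and 0 when thinned (2 of 4059). They became 3 with no filter (169 of 16048) or a gate minimum of 1 UMI (107 of 9606), which added Cxcr5. Same-numbered libraries deviated with correlations of −0.110 to 0.058 in CD8 T cells, so no pairing by replicate number was seen. It is not excluded, since the deviations of a group of 2 libraries mirror each other. Het replicate 3 was not compared with homo replicate 1. The replicate block left 5 homo and 1 het calls, beside 175 and 60 of 9542 genes. In all T cells thinning left 0 calls in homo, with S1pr5 not retested, and 0 in het, beside 35 and 7 of 7734 genes. The Cxcr5 difference between CD8 T and CD4 T cells fell to 0 calls with DESeq2, barcodes with a T-cell receptor, at least 500 genes, thinning, no UMI of another class and without the deepest barcodes, and thinning left Cxcr5 untested there. All genes called in these runs were 1 of 8712, 8 of 8591, 7 of 8747, 0 of 3101, 8 of 8630 and 13 of 8355, in that order. CD4 T het had 1 call, Cxcr5, with no filter, with only 2 groups and without the 2 shallowest libraries. All genes called in CD4 T het were 69 of 14350 with no filter and 45 of 7701 with only 2 groups. B homo had 1 member called with at least 500 genes (26 of 9006 genes). CD8 T without Ccl5 had 1, Cxcr4, with no filter (56 of 15380 genes).

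Leaving out 1 library at a time gave 1 to 6 homo and 0 to 2 het calls in CD8 T cells, 1 to 3 homo and 1 to 1 het calls in T cells, and 0 to 1 in CD4 T het, the CD8 T minus CD4 T difference and CD8 T with and without Ccl5. It gave no call in B, NK, CD4 T homo, and homo against het. Calls among all genes moved as well. Without het replicate 1, 2 or 3, CD8 T homo had 148 of 9167, 122 of 9156 and 244 of 9716 genes called. CD8 T het had 29, 47 and 112 of the same genes tested.

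In spleen, B cells of Y665F had 2 members past 2-fold at 5% mitochondrial UMIs and 1 without the deepest barcodes, and B cells of Y665H 2 with no UMI of another class and 2 without the deepest barcodes. Of all genes, 1136 of 11697, 739 of 11600, 813 of 12009 and 898 of 12615 were past 2-fold, in that order. CD4 T cells of Y665F had 1 under TMM scaling, thinning, 5% mitochondrial UMIs, no UMI of another class and without the deepest barcodes, and those of Y665H 1 under thinning, 5% mitochondrial UMIs and without the deepest barcodes. All genes past 2-fold were 1052 of 11957, 923 of 9429, 1120 of 11865, 978 of 11622 and 1004 of 11771 in Y665F. In Y665H they were 577 of 10077, 869 of 12595 and 739 of 12396, each in that order. NK cells of Y665F had 1 when thinned and 0 with no UMI of another class, and those of Y665H 1 under each of these. Of all genes, 996 of 7790 and 985 of 8675 were past 2-fold in Y665F, and 662 of 8279 and 718 of 8968 in Y665H. The causes were not tested. Of single-member LN values, 1279 kept direction and side of the threshold, 46 lost their call, 10 gained one and 54, none of them called, changed sign, and 61 spleen values moved beyond their counting interval. Treg tests were not run, since 2 libraries held fewer than 30 such cells.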

Other observations

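Treg cells of the spleen, which were not tested, held 222, 202 and 318 cells in WT, Y665H and Y665F. Ccr2, which takes part in Treg recruitment to inflamed tissue, stood at 31.9, 53.4 and 74.8 CPM (39, 63 and 144 UMIs) in these libraries. Cxcr3 stood at 24.6, 39.8 and 47.2 CPM (30, 47 and 91 UMIs), and Ccr7 at 124, 111 and 80.5 CPM. Ccr2 and Cxcr3 were thus lowest in WT and highest in Y665F, and Ccr7 ran the other way, with no counting intervals given here. Past 2-fold in these cells were 890 of 9913 genes in Y665F and 849 of 9686 in Y665H. Cxcr6, the other receptor of inflamed tissue, had 5, 4 and 9 UMIs (4.10, 3.39 and 4.67 CPM), too few to order. S1pr1 stood at 313, 232 and 253 CPM and Cxcr5 at 16.4, 20.4 and 9.35 CPM, with no common order. Cxcr4 stood at 31.9, 34.8 and 31.7 CPM, and S1pr5 had 1, 0 and 0 UMIs. With 1 library per genotype these are descriptions.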
